A study of Homo sapiens with 28 samples.

Results

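The genes described here are 36 genes of cholesterol and fatty acid synthesis and their control, chosen by name, out of 23533 genes in the RNA tables. They fall into 17 genes of sterol synthesis, 10 of SREBP control and sterol uptake, 2 of cholesterol efflux and 7 of fatty acid synthesis, and all 36 were found by symbol and tested in all 4 tables. They were measured in EPC2, an established human esophageal epithelial cell line, plated densely the day before in keratinocyte serum-free medium and treated for 6 h. The 4 groups were untreated cells, cells given IL-13 (100 ng/ml), cells given vitamin D (100 nM) and cells given both. RNA was sequenced in 3 samples a group, 12 in all, and peaks of STAT6 (untreated, IL-13), VDR (untreated, vitamin D), H3K4me3, H3K9ac and H3K27ac (all 4 groups) came from 1 library each, 16 in all. All values come from 1 cell line, and the labels leave unsaid the form of vitamin D and whether the 3 RNA samples of a group grew apart, so the p-values measure the spread between these samples, which may be technical.

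Cells make cholesterol from acetyl-CoA through the mevalonate pathway, squalene and a series of sterols, and make fatty acids from the same precursor. The transcription factors SREBP-1 and SREBP-2, encoded by SREBF1 and SREBF2, drive both pathways when sterols are scarce: SCAP escorts them out of the endoplasmic reticulum and the INSIG proteins hold them back. Excess sterol instead acts through the LXR receptors, whose targets include the exporters ABCA1 and ABCG1 and the ubiquitin ligase MYLIP, which lowers lipoprotein uptake. In skin, 7-dehydrocholesterol, the substrate of DHCR7, is also the precursor of vitamin D. The receptor of active vitamin D is VDR, a transcription factor of the nucleus, and IL-13, a cytokine of allergic inflammation, signals through STAT6.

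SREBPs act on promoters together with the factor NF-Y, whose site is the CCAAT box, and the promoters below show how densely some members carry that box. The sequences are the 250 bases before the start of the gene, from RefSeq on GRCh38.p14, written 5′ to 3′ on the strand of the gene. Capitals mark CCAAT on either strand (read as CCAAT or ATTGG) and, in SREBF2, the core of a sterol regulatory element, TCACNCCAC. MVD (chr16:88663092-88663341, minus strand) and MVK (chr12:109573544-109573793, plus strand) are shown because the RNA of the first fell in all 3 treated groups and that of the second went opposite ways with the 2 agents. NSDHL (chrX:152830813-152831062, plus strand) is shown because a VDR region covers its start, and TMEM97 (chr17:28318950-28319199, plus strand) because its RNA was called higher with both agents and with neither alone. SREBF2 (chr22:41832855-41833104, plus strand) carries the sterol element, and ABCA1 (chr9:104928156-104928405, minus strand), the member with the largest rise, carries neither motif.
MVD: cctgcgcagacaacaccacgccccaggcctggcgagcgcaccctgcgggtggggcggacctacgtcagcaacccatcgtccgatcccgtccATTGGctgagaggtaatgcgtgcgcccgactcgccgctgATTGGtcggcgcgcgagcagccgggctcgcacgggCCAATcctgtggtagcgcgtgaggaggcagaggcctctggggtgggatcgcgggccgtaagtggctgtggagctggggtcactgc
MVK: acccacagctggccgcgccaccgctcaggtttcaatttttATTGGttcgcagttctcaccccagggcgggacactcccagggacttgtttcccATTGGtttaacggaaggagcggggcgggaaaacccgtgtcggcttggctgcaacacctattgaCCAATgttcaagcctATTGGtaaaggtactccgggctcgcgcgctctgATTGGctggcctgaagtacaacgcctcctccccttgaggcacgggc
NSDHL: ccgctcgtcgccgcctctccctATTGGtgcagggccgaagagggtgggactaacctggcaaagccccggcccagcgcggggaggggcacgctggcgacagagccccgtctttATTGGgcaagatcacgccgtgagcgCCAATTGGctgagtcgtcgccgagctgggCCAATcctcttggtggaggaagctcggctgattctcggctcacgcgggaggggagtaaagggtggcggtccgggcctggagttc
TMEM97: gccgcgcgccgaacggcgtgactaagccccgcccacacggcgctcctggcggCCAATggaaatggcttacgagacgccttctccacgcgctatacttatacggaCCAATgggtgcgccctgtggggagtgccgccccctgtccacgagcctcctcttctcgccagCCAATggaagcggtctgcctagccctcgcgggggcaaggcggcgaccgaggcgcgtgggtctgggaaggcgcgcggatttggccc
SREBF2: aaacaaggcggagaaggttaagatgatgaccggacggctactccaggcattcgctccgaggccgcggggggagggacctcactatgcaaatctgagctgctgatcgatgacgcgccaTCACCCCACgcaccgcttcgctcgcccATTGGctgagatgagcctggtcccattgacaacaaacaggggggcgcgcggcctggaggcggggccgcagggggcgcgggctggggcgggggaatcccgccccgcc
ABCA1: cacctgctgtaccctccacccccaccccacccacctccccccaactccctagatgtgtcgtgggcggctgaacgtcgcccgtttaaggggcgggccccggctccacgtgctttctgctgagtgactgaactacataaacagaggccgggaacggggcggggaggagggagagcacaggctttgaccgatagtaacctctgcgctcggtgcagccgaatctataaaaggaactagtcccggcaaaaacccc
CCAAT was found 5 times in each of the MVK and NSDHL windows, 3 times in each of the MVD and TMEM97 windows, once in that of SREBF2 and not in that of ABCA1. The 5 matches of NSDHL began 228, 138, 113, 110 and 84 bases before the start, and those at 113 and 110 overlap on opposite strands. The sterol element of SREBF2 began 133 bases before the start and its CCAAT match 106 bases before it.

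The promoter table matched 31 of the 36 members. Of these, 21 (67.7%) held CCAAT on either strand in at least 1 such window, beside 37.0% of the 27305 genes in the table, and 15 (48.4%) held it at least 2 times, beside 11.5%. The shares of all genes include genes not expressed in these cells, and none was computed for expressed genes alone. A gene with several windows has more chances of a match. By role, CCAAT was in 12 of 14 sterol synthesis genes, 6 of 10 control and uptake genes, 3 of 6 fatty acid synthesis genes and not in ABCA1, the 1 efflux gene matched. TCACNCCAC was in SREBF2 alone among members (3.23%) and in 1.09% of all genes, and the E box-like SREBP site TCACNTGA was in EBP and INSIG1 (6.45%) and in 3.97% of all genes. The direct repeat read by VDR, GGTCANNNNGGTCA with T also allowed as the second base of either GGTCA, was in 0 member windows and in 0.143% of all genes. A match is a string of letters, not a shown site, and its absence says only that these letters are not in this window.

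The members were abundant transcripts: their median RPKM (reads scaled to transcript length and to all mapped reads of a library) untreated was 49.7, and 27 of 36 stood at 20 RPKM or more. SCD, the stearoyl-CoA desaturase, was the most abundant at 1211 RPKM, and MYLIP the least abundant at 1.88 RPKM. Each table holds 1 RPKM value per group, with no spread between samples, so errors are given on the log2 changes only, as standard errors (SE) derived from the p-values in the authors' deposited tables. Read depth cannot be had from these values. The 8 squamous epithelial markers were all detected, from 12.7 RPKM for IVL with IL-13 to 16863 RPKM for KRT6A, while leukocyte, hepatocyte and adipocyte markers stayed at or below 0.149 RPKM. Among fibroblast and endothelial markers, COL1A1 (5.84 to 15.2 RPKM) and VWF (0.514 to 3.15 RPKM) alone reached 1 RPKM. In bulk RNA, a change in the share of cells that express a gene and a change in RNA per cell cannot be told apart.

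Sterol synthesis genes were mostly lower with IL-13. A gene counts as called when its adjusted p in the authors' deposited table is under 0.05. With IL-13 against untreated, 12 of the 17 were lower and 1 was higher, with a median log2 change of -0.17 beside 0.00 over the 15172 genes tested. Over all genes tested, 14% were called lower and 12.3% higher. At 20 RPKM or more untreated, 25.6% were called lower, so the shares are nearer among abundant genes. Of the 17 members of any role called lower, 10 changed by at least 0.2 on the log2 scale.

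With vitamin D against untreated, 9 of the 17 were lower and 4 higher, with a median of -0.10. Over all genes, 15.1% were called lower and 17.5% higher, and 17% and 34.3% at 20 RPKM or more. With both agents against untreated, 10 were lower and 2 higher, with a median of -0.19, beside 15.7% and 16% of all genes. At 20 RPKM or more untreated, these shares were 23.5% and 21.2%. The 3 comparisons share the untreated samples, so their likeness is not counted here, and each has its own values below.

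HMGCS1, which makes HMG-CoA, stood at 95.8 RPKM untreated, 78.5 with IL-13, 70.0 under vitamin D and 65.6 with both (chr5:43287572-43313614, minus strand, hg19). All 3 treated values were below the untreated one. In the authors' deposited tables its log2 changes were -0.30 (SE 0.04, adjusted p 7.36e-16) with IL-13, -0.39 (SE 0.03, adjusted p 2.45e-37) with vitamin D and -0.54 (SE 0.04, adjusted p 2.08e-34) with both. MVD, which makes isopentenyl diphosphate, had the same order at 68.7, 56.2, 53.7 and 45.5 RPKM (chr16:88718348-88729495, minus strand). Its log2 changes in the authors' deposited tables were -0.30 (SE 0.05, adjusted p 1.56e-09), -0.30 (SE 0.04, adjusted p 4.26e-10) and -0.58 (SE 0.07, adjusted p 6.01e-17). PMVK, the phosphomevalonate kinase between MVK and MVD, stood at 28.5, 26.0, 23.5 and 19.6 RPKM (chr1:154897208-154909484, minus strand). In the authors' deposited tables its log2 value fell by 0.15 (SE 0.05), 0.22 (SE 0.05) and 0.53 (SE 0.07).

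NSDHL, which removes a methyl group from the sterol ring, moved in opposite directions with the 2 agents (chrX:151999511-152037907, plus strand). It stood at 49.5 RPKM untreated, 37.1 with IL-13, 75.9 under vitamin D and 54.0 with both, so the combination lay near the untreated value. In the authors' deposited tables its log2 changes were -0.43 (SE 0.04, adjusted p 1.18e-20) with IL-13, 0.67 (SE 0.04, adjusted p 2.25e-70) with vitamin D and 0.13 (SE 0.04, adjusted p 0.0133) with both. CETN2, a centrosome gene that starts within 1 kb of NSDHL on the opposite strand, stood at 34.2, 34.9, 38.7 and 38.0 RPKM and in the authors' deposited table rose by 0.23 (SE 0.05) with vitamin D.

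MVK, the mevalonate kinase, shared that pattern at 50.04, 40.5, 58.1 and 45.3 RPKM (chr12:110011500-110035071, plus strand). Its log2 changes in the authors' deposited tables were -0.32 (SE 0.04, adjusted p 3.25e-12), 0.27 (SE 0.04, adjusted p 2.16e-10) and -0.14 (SE 0.05, adjusted p 0.031). MMAB, which acts in vitamin B12 metabolism and starts next to MVK, stayed between 7.54 and 8.45 RPKM and was not called with either agent alone. TM7SF2, a sterol reductase, stood at 23.4, 18.3, 27.5 and 23.2 RPKM, and in the authors' deposited tables changed by -0.37 (SE 0.06) with IL-13 and 0.29 (SE 0.05) with vitamin D. SQLE, the squalene epoxidase, stood at 147.7, 133.2, 166.6 and 167.1 RPKM, and there changed by -0.16 (SE 0.03), 0.23 (SE 0.03) and, with both, 0.18 (SE 0.04). LSS, the lanosterol synthase that follows it, went the other way in the authors' deposited tables, with 0.16 (SE 0.04) with IL-13 and -0.24 (SE 0.04) with vitamin D.

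Squamous epithelial markers also differed between the groups, in more than one pattern. Of the 8, 2 were called higher and 2 lower with IL-13, 3 and 3 with vitamin D, and 2 and 5 with both, and their summed level lay between 31544 and 36172 RPKM. IVL, a cornified envelope protein, stood at 50.3, 12.7, 92.6 and 21.5 RPKM untreated, with IL-13, under vitamin D and with both, and KRT13, a keratin of maturing layers, at 201.5, 96.7, 253.7 and 113.7 RPKM. KRT4, the partner of KRT13, instead stood at 64.3, 63.8, 241.6 and 293.0 RPKM, with no call with IL-13. TP63, a basal cell factor, stood at 50.7, 72.3, 37.6 and 58.3 RPKM and the desmosome gene DSG3 at 437.1, 504.8, 279.4 and 346.4 RPKM, both called higher with IL-13 and lower with vitamin D. KRT6A was called in none of these, and KRT5 and KRT14 were not called with IL-13. The part of these markers in the changes of NSDHL, MVK and TM7SF2 was not tested.

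Of the remaining sterol genes, FDFT1 (squalene synthase) fell from 202.8 RPKM to 172.3 with IL-13, 182.3 under vitamin D and 158.8 with both, with log2 changes of -0.25 (SE 0.03), -0.10 (SE 0.03) and -0.35 (SE 0.04) in the authors' deposited tables. CYP51A1 (lanosterol demethylase) and DHCR7 (the last step to cholesterol) were also called lower in each, by 0.09 to 0.31 on the log2 scale. FDPS (farnesyl diphosphate synthase) stood at 164.2, 148.1, 152.6 and 143.0 RPKM and was called lower with IL-13, at -0.16 (SE 0.04), and with both, at -0.19 (SE 0.04), but not with vitamin D alone, per the authors' deposited tables. ACAT2, the cytosolic thiolase of the first step, was called in those same comparisons in the authors' deposited tables, at -0.15 (SE 0.04) and -0.28 (SE 0.05). IDI1 and GGPS1, which act on isoprenoid precursors, were called lower with vitamin D only, at -0.15 (SE 0.04) and -0.17 (SE 0.06) in the authors' deposited table, and EBP was called in none of the 3. HSD17B7 was called lower with both agents, at -0.24 (SE 0.09) in the authors' deposited table.

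**Figure D1:**
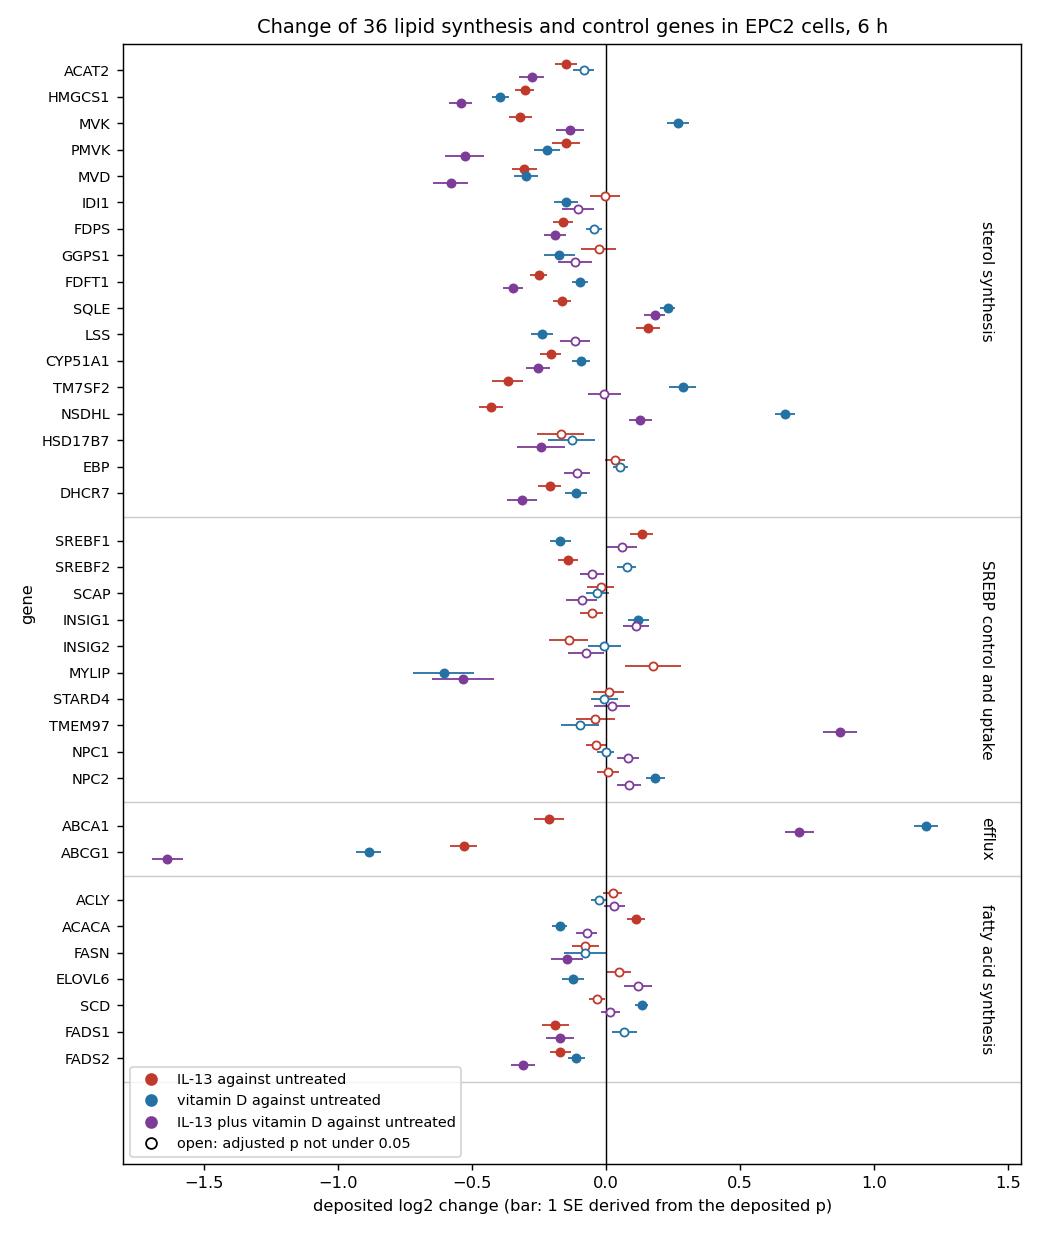
Deposited log2 change of each of the 36 genes (rows, by role) against untreated with IL-13 (red), vitamin D (blue) and both (purple). Bars are 1 SE derived from the deposited p, and open points have an adjusted p of 0.05 or more. Most sterol synthesis points lie left of 0, NSDHL, MVK, TM7SF2 and SQLE have vitamin D points on the right, and ABCA1 and ABCG1 span the widest range.

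Genes of SREBP control and sterol uptake were called in both directions. Of the 10 genes of SREBP control and sterol uptake, 1 was higher and 1 lower with IL-13, 2 higher and 2 lower with vitamin D, and 1 higher and 1 lower with both, near or below the shares of all genes given above. Their median log2 changes were -0.03, -0.01 and 0.04. SREBF1 stood at 65.5 RPKM untreated, 72.8 with IL-13, 55.9 under vitamin D and 68.0 with both (chr17:17714663-17740325, minus strand), with log2 changes of 0.13 (SE 0.04) with IL-13 and -0.17 (SE 0.04) with vitamin D in the authors' deposited tables. SREBF2 stood at 91.2, 83.7, 92.4 and 87.6 RPKM (chr22:42229106-42302375, plus strand) and was called with IL-13 alone, at -0.14 (SE 0.04) in the authors' deposited table. INSIG1, the retention protein that SREBPs themselves induce, stood at 25.2, 24.7, 26.3 and 27.2 RPKM and was called with vitamin D, at 0.12 (SE 0.04) in the authors' deposited table. SCAP, INSIG2, the sterol carrier STARD4 and the lysosomal exporter NPC1 were called in none of the 3 comparisons, and NPC1 stayed between 25.5 and 28.1 RPKM. NPC2, its lysosomal partner, rose from 119.4 to 130.4 RPKM with vitamin D, by 0.18 (SE 0.04) in the authors' deposited table.

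MYLIP stood at 1.88 RPKM untreated, 2.17 with IL-13, 1.14 under vitamin D and 1.27 with both (chr6:16129317-16148478, plus strand). Both groups with vitamin D were below both groups without it. In the authors' deposited tables its log2 changes were 0.18 (SE 0.10, adjusted p 0.229) with IL-13, -0.61 (SE 0.11, adjusted p 1.03e-06) with vitamin D and -0.53 (SE 0.12, adjusted p 3.11e-05) with both.

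TMEM97, an endoplasmic reticulum protein that binds NPC1 and is also known as the sigma-2 receptor, stood at 5.77 RPKM untreated, 5.67 with IL-13, 5.17 under vitamin D and 10.6 with both (chr17:26646121-26655711, plus strand). The combination stood apart from the other 3 groups, which lay close together. In the authors' deposited tables its log2 changes were -0.04 (SE 0.07, adjusted p 0.776) with IL-13, -0.10 (SE 0.07, adjusted p 0.336) with vitamin D and 0.87 (SE 0.06, adjusted p 2.9e-40) with both. IFT20, a ciliary transport gene whose end overlaps that of TMEM97 on the other strand, stayed between 9.70 and 10.5 RPKM and was called in none of the 4 tables. Whether reads were counted by strand is not given in these sources, and 8 members overlap a gene on the other strand.

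The 2 exporters moved apart with vitamin D. ABCA1, which loads cholesterol onto apolipoprotein A-I, stood at 3.50 RPKM untreated, 3.05 with IL-13, 7.75 under vitamin D and 5.77 with both (chr9:107543284-107690527, minus strand). Both groups with vitamin D were above both groups without it. In the authors' deposited tables its log2 changes were -0.21 (SE 0.05, adjusted p 0.000688) with IL-13, 1.19 (SE 0.05, adjusted p 4.17e-149) with vitamin D and 0.72 (SE 0.05, adjusted p 2.74e-39) with both. ABCG1, which passes cholesterol to lipoprotein particles, stood at 16.2, 11.3, 8.40 and 5.15 RPKM (chr21:43640008-43717354, plus strand), lowest with both agents. Its log2 changes in the authors' deposited tables were -0.53 (SE 0.05, adjusted p 1.07e-24), -0.88 (SE 0.05, adjusted p 1.64e-76) and -1.64 (SE 0.06, adjusted p 1.73e-176). Per length, ABCG1 RNA was above ABCA1 RNA in the untreated and IL-13 groups. Under vitamin D the levels were close, at 8.40 and 7.75 RPKM, and with both agents ABCG1 was the lower, at 5.15 and 5.77 RPKM. With vitamin D the LXR targets named here, which are not all of them, did not move together. ABCA1 was called higher, ABCG1 and MYLIP lower, and SREBF1, another LXR target, lower. The part of LXR in these changes was not tested.

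**Figure D2:**
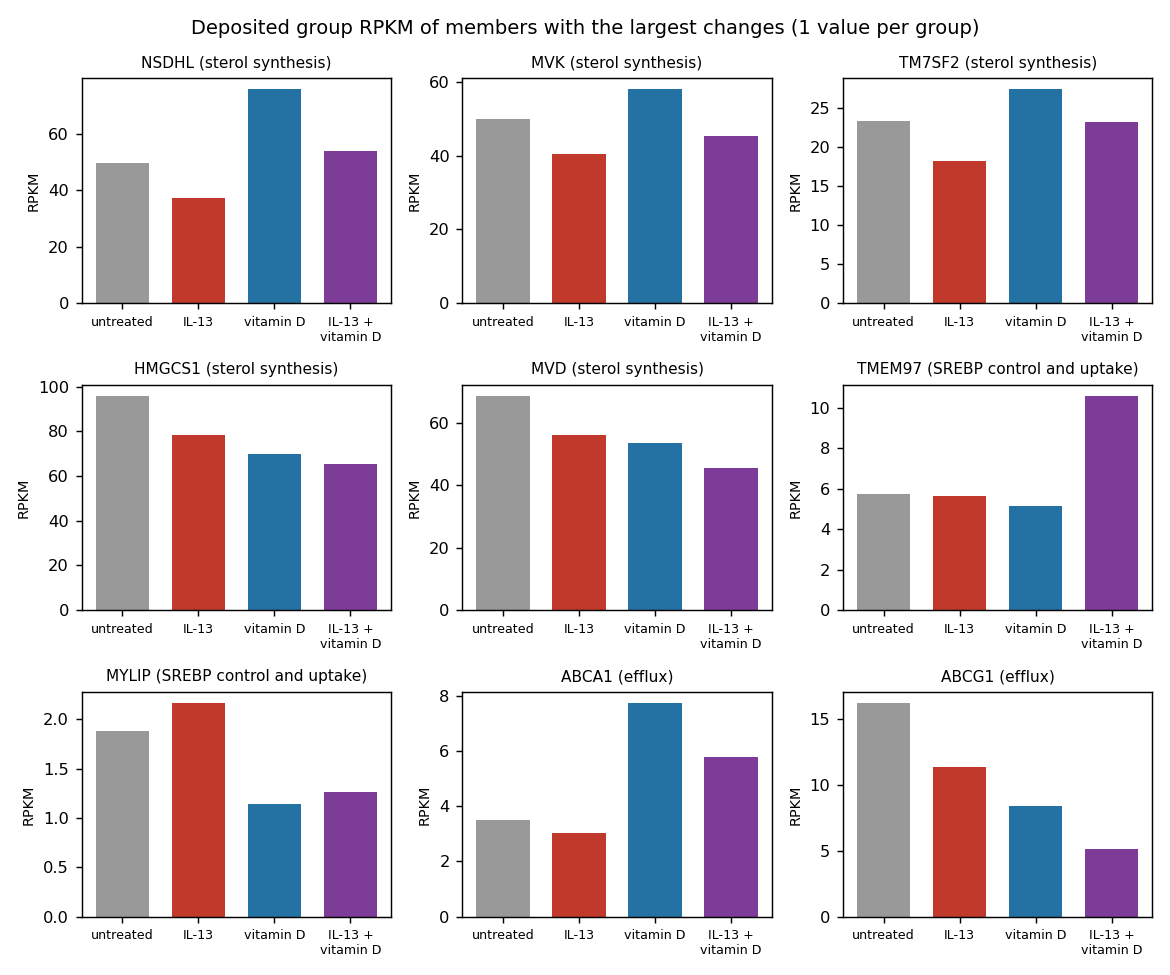
RPKM (bars from 0, 1 deposited value per group, no spread) of 9 members with large changes in untreated, IL-13, vitamin D and combination cells. NSDHL, MVK and TM7SF2 are lowest with IL-13 and highest with vitamin D, HMGCS1 and MVD are highest untreated, TMEM97 is raised to 10.6 RPKM with both agents, and ABCA1 and ABCG1 diverge with vitamin D.

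Fatty acid synthesis genes changed by small amounts at 6 h. Of the 7, 1 was higher and 2 lower with IL-13, 1 higher and 3 lower with vitamin D, and 0 higher and 3 lower with both, with medians of -0.03, -0.08 and -0.07. Over all genes 12.3% were higher and 14% lower with IL-13, 17.5% and 15.1% with vitamin D, and 16% and 15.7% with both. For lower calls at 20 RPKM or more untreated, the shares were 25.6%, 17% and 23.5%. Lower calls among the 7 lay above these shares and higher calls near or below them, though 7 genes give only coarse shares. ACLY, which makes cytosolic acetyl-CoA, stayed between 97.0 and 105.9 RPKM and FASN, the fatty acid synthase, between 95.9 and 106.6 RPKM, with ACLY called in none of the 4 tables. FASN was called lower with both agents at the edge of the threshold, at -0.15 (SE 0.06, adjusted p 0.0496) in the authors' deposited table. ACACA, the acetyl-CoA carboxylase, stood at 27.2, 29.7, 23.1 and 25.8 RPKM, with log2 changes of 0.11 (SE 0.03) with IL-13 and -0.17 (SE 0.03) with vitamin D in the authors' deposited tables. SCD, the most abundant member, stood at 1211, 1198, 1277 and 1221 RPKM (chr10:102106772-102124588, plus strand), and was called with vitamin D at 0.13 (SE 0.03) in the authors' deposited table. ELOVL6, an elongase, stood at 21.7, 22.8, 19.2 and 23.6 RPKM and was called with vitamin D at -0.12 (SE 0.04) in the authors' deposited table.

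The desaturases FADS1 and FADS2, neighbours that make polyunsaturated fatty acids, stood at 10.6, 9.38, 10.7 and 9.36 RPKM and at 73.4, 66.0, 65.4 and 59.0 RPKM. FADS1 was called lower in both groups with IL-13, at -0.19 (SE 0.05) with IL-13 and -0.17 (SE 0.05) with both in the authors' deposited tables. FADS2 was lower in each treated group in the authors' deposited tables, by 0.17 (SE 0.04), 0.11 (SE 0.03) and 0.31 (SE 0.04) on the log2 scale.

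The effect of IL-13 was measured a second time in cells that all had vitamin D, in samples that the first comparison did not use. With both agents against vitamin D, 18 of the 36 members were lower and 5 higher, beside 16.9% and 16.4% of the 14859 genes tested. Among genes at 20 RPKM or more untreated, 32% were lower and 16.6% higher, so the shares of lower calls are nearer among abundant genes. Of sterol synthesis genes, 12 were lower and 1 higher. The same 11 sterol genes were called lower in both measurements, which is 91.7% of each list of 12, and over all genes the shared lower calls were 78.2% of the first list and 66.2% of the second. The 11 sterol genes were ACAT2, HMGCS1, MVK, PMVK, MVD, FDPS, FDFT1, CYP51A1, TM7SF2, NSDHL and DHCR7, which span the pathway from its first to its last enzyme. LSS was called higher in both, and no member was called in opposite directions. NSDHL fell by 0.52 (SE 0.05) and MVK by 0.39 (SE 0.05) in the authors' deposited table of the second measurement. ABCA1 fell by 0.46 (SE 0.05) and ABCG1 by 0.73 (SE 0.06) in the same authors' deposited table.

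The effect of vitamin D in cells given IL-13 was derived as the difference between 2 of the authors' deposited tables and tested with a z test over 14734 genes. Of the 36 members, 8 were higher and 9 lower, beside 12.3% and 11.9% of all genes, and 17.9% and 14.7% at 20 RPKM or more untreated. With the variance taken as the plain sum of those of the 2 tables, 4 of these calls were lost, and 6 members stayed higher. Sterol synthesis genes again split, 4 higher and 5 lower: NSDHL rose by 0.56 (SE 0.05), TM7SF2 by 0.36 (SE 0.07), SQLE by 0.35 (SE 0.05) and MVK by 0.18 (SE 0.05), while PMVK fell by 0.38 (SE 0.07), MVD by 0.28 (SE 0.07), LSS by 0.27 (SE 0.06) and HMGCS1 by 0.24 (SE 0.05), and EBP was also called lower. ABCA1 rose by 0.93 (SE 0.06) and TMEM97 by 0.91 (SE 0.07), while ABCG1 fell by 1.11 (SE 0.07) and MYLIP by 0.71 (SE 0.12).

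Whether the IL-13 effect itself differed with vitamin D was tested as the difference of the 2 independent IL-13 effects, again over 14734 genes. Of the 36 members, 1 was called higher and 1 lower, beside 1.41% and 1.01% of all genes. TMEM97 differed by 1.01 (SE 0.10, 95% interval 0.81 to 1.21, adjusted p 1.21e-20), since IL-13 left it at 5.67 RPKM alone and the combination brought it to 10.6 RPKM. ABCA1 differed by -0.25 (SE 0.07, 95% interval -0.39 to -0.11, adjusted p 0.0281), since IL-13 lowered it more in cells with vitamin D. None of the 17 sterol synthesis genes was called by this z test, 3 had an unadjusted p under 0.05 (HMGCS1, SQLE and EBP), and their differences lay between -0.18 and 0.17. HMGCS1, at 0.17 (SE 0.06, adjusted p 0.096), and EBP, at -0.18 (SE 0.06, adjusted p 0.0934), came nearest, and a missed threshold does not show equal effects. For ABCG1 the difference was -0.20 (95% interval -0.36 to -0.04, adjusted p 0.246). With a t distribution of 8 degrees of freedom in place of the normal one, which makes the SE of genes with very small p far smaller, HMGCS1, MVK, NSDHL, ABCG1 and ELOVL6 were called as well, with differences of 0.17, -0.07, -0.10, -0.20 and 0.20.

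**Figure D3:**
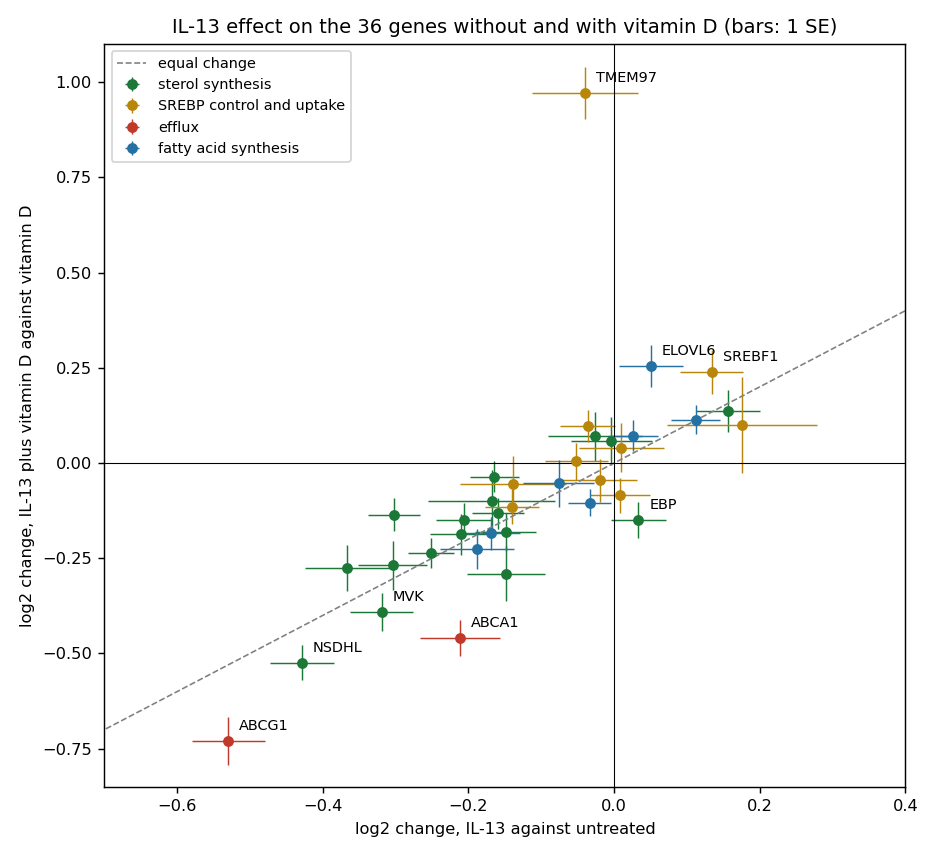
Log2 change with IL-13 in cells without vitamin D (x axis) and with it (y axis) for the 36 genes, coloured by role, with bars of 1 SE. The 2 axes share no samples, the dashed line marks equal change, and TMEM97 is the point far above it, at 0.97 on the y axis.

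A wider list of 57 further genes of these pathways gave 8 higher and 16 lower of 54 tested with IL-13, 9 and 15 of 54 with vitamin D, and 11 and 18 of 55 with both. The shares over all genes were 12.3% higher and 14% lower, 17.5% and 15.1%, and 16% and 15.7%. Their median log2 changes were -0.08, -0.04 and -0.03. DGAT2, which completes triglycerides, showed the largest fall with IL-13, from 21.2 to 11.2 RPKM and -0.92 (SE 0.05) in the authors' deposited table, and stood at 9.72 RPKM with both, at -1.10 (SE 0.06) there. ELOVL1, an elongase of very long chains, stood at 96.3, 63.6, 109.6 and 77.2 RPKM, with -0.61 (SE 0.04) with IL-13 and 0.24 (SE 0.03) with vitamin D in the authors' deposited tables.

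The largest rises with IL-13 on that list were ELOVL5, from 25.7 to 37.7 RPKM, LIPA, the lysosomal lipase, from 12.9 to 18.0 RPKM, and PDSS1, from 2.10 to 2.83 RPKM. ACSL4, which activates arachidonic acid, rose most with vitamin D, from 7.86 to 10.7 RPKM, at 0.50 (SE 0.05) in the authors' deposited table, followed by ELOVL1 and ACSL3. It rose most with both as well, to 12.5 RPKM, followed by ELOVL5 and the cholesterol esterifying enzyme SOAT1, among genes at 1 RPKM or more. The largest falls with vitamin D were ACSL1, from 39.8 to 25.4 RPKM, at -0.59 (SE 0.03) in the authors' deposited table, ELOVL4, from 15.2 to 10.01 RPKM, and ME1, a source of NADPH, from 19.3 to 13.98 RPKM. ACSL1 was also among the 3 largest falls with both, at 25.1 RPKM. The difference of the IL-13 effects was called higher for ACSL3 (0.22, SE 0.07), ACSL4 (0.31, SE 0.08) and ELOVL4 (0.36, SE 0.09).

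At promoters, marks of active starts were present at nearly every member. The highest summit within 1 kb of the start was taken in each library, as fold enrichment (pileup over background, with 1 added to each) from the authors' deposited peak lists, and ratios were centred on the median over all genes with a peak in all 4 libraries. There is 1 library per group, so no test was possible and 1.5-fold was used as a mark of size. H3K4me3, a mark of active promoters, was found at 36 of 36 members in all 4 libraries, with a median fold enrichment of 44.5 untreated beside 42.5 over all genes with a peak. With IL-13, 1 member passed 1.5-fold (FADS1, lower, from 40.4 to 26.1), and 0 did so with vitamin D or both, beside 2.02%, 2.02% and 1.84% of all genes.

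H3K9ac, an acetylation of active promoters, was found in all 4 libraries at 33 members. HSD17B7 had no peak in any library, EBP lacked 1 with both agents, and ABCG1 had 1 with IL-13 only. Past 1.5-fold were 4 members with IL-13 (FDPS, INSIG1, SREBF1 and TM7SF2, all lower), 4 with vitamin D (ABCA1 and FASN higher, MVK and TM7SF2 lower) and 3 with both (SCD higher, INSIG1 and TM7SF2 lower). The shares over all genes were 10.7%, 10.3% and 11.6%, near those of the members. Several values lay at 1.5-fold within 0.001 on the log2 scale, where rounding of the deposited values decides: INSIG1 with IL-13 and with both was counted, and ABCA1 with IL-13 (lower) and ELOVL6 with vitamin D (higher) were not. With all such values counted there were 5, 5 and 3 members, beside 12.6%, 12.4% and 12% of all genes, and with none counted 3, 4 and 2, beside 9.03%, 8.95% and 8.74%. These peaks were low, with a median fold enrichment of 8.999 at members untreated. A peak with a -log10 q of at least 10 in all 4 libraries was found at 3 members, of which 1, 0 and 0 passed 1.5-fold.

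H3K27ac, a mark of active promoters and enhancers, was found in all 4 libraries at 35 members, the exception being ABCG1, whose peak of 4.59-fold untreated was not called with IL-13 or vitamin D. Past 1.5-fold were 1 member with IL-13 (MYLIP, higher), 1 with vitamin D (ABCA1, higher) and 0 with both, beside 4.94%, 3.46% and 4.44% of all genes. MYLIP lay at 1.5-fold within 0.001 on the log2 scale, and without such values 0 members passed with IL-13. At the 29 members with a peak of -log10 q of at least 10 in all 4 libraries, which ABCA1 and MYLIP do not have, 0 passed with IL-13 or vitamin D. The background computed back from the peaks was 1.40 in the untreated H3K27ac library and 0.512 to 0.731 in the treated ones, and before centring the median gene was lower by 0.33 to 0.51 on the log2 scale.

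ABCA1 was the one member past 1.5-fold with vitamin D for both H3K27ac and H3K9ac. Its H3K27ac fold enrichment was 12.5 untreated, 7.94 with IL-13, 16.8 under vitamin D and 10.9 with both, its H3K9ac 6.48, 4.04, 9.53 and 8.87, and its H3K4me3 37.0, 38.5, 55.2 and 42.9. The vitamin D library was the highest of the 4 for each mark. After centring, the log2 ratios with vitamin D were 0.75 for H3K27ac, 0.64 for H3K9ac and 0.42 for H3K4me3. NSDHL, whose RNA also rose, had 0.12, 0.15 and -0.12, and for ABCG1, whose RNA fell, the ratio of H3K4me3 was -0.40. For TMEM97 with both agents the ratios were -0.09 for H3K27ac, 0.14 for H3K9ac and -0.27 for H3K4me3, while its RNA rose by 0.87.

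**Figure D4:**
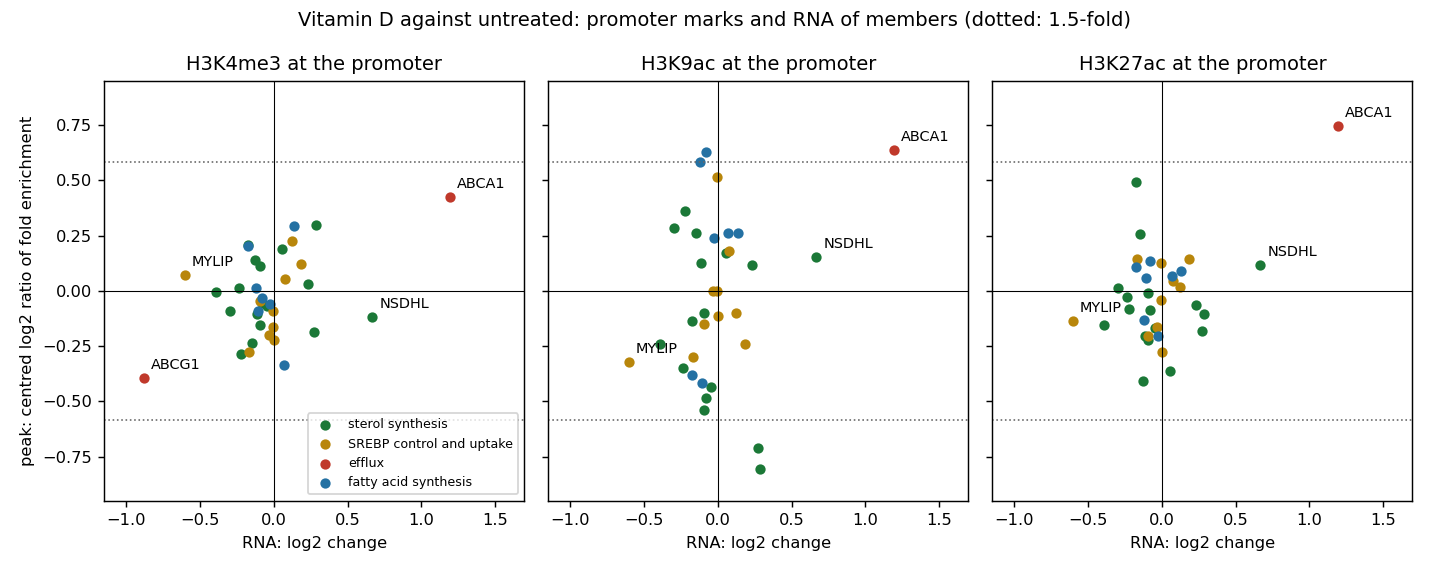
Vitamin D against untreated at members: log2 change of RNA (x axis) and centred log2 ratio of fold enrichment of the promoter peak (y axis) for H3K4me3, H3K9ac and H3K27ac, 1 library per group, coloured by role. Dotted lines mark 1.5-fold, and ABCA1 lies at the upper right of each panel.

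With IL-13, 1 of 36 members (2.78%) had a STAT6 region in the gene or within 10 kb, beside 7.23% of all genes and 9.49% of the 11248 genes at 1 RPKM or more untreated, and untreated 0 did, beside 0.527%. The region lay in an intron of SREBF1 (chr17:17728983-17729598, hg19), 11.1 kb after the start, with a fold enrichment of 7.66, rank 881 of 4802 regions. No region was called there in the untreated STAT6 library. That library had 1126 regions and a computed background of 1.46, beside 4802 and 3.05 with IL-13, so a missing call there may reflect its depth.

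VDR regions were more frequent. With vitamin D, 15 of 36 members (41.7%) had a VDR region in the gene or within 10 kb, beside 21.2% of all genes and 29.6% of the 11248 genes at 1 RPKM or more untreated. Without vitamin D, 6 members (16.7%) had one, beside 5.19% of all genes and 7.65% of those at 1 RPKM or more. The 24 distinct regions with vitamin D had a median fold enrichment of 9.04, beside 6.72 over all 9224 regions, and 7 of the 24 overlapped a region of the untreated library. FADS1 and FADS2 share 1 of them.

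The 5 strongest regions at members lay in gene bodies, 8.22 to 139.8 kb after the start, in introns for ABCA1 and ELOVL6 and in exons for MVK by the authors' annotation. ABCA1 had 4 regions with vitamin D, led by chr9:107635058-107636175 (hg19), 54.9 kb after the start, at 51.7-fold and rank 133, and chr9:107657523-107658639, 32.5 kb after the start, at 41.7-fold and rank 229. Both were also called without vitamin D, at 14.4-fold and 7.73-fold. ELOVL6 had a region of 51.2-fold 139.8 kb after the start (chr4:110979363-110980503), called at 18.5-fold without vitamin D, and 3 weaker ones, of which 1 of 3.84-fold lay 0.917 kb after the start. Its RNA was called lower with vitamin D. MVK had regions of 38.8-fold and 33.7-fold 8.22 kb and 13.0 kb after the start (chr12:110019283-110020397 and chr12:110023984-110025100), also called without vitamin D at 7.73-fold and 6.63-fold.

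At NSDHL, the VDR region of 23.5-fold (chrX:151999208-151999998) covered the start, with its summit 97 bases after it, and the authors' list assigned it to CETN2 as well. It was called at 7.91-fold without vitamin D. The region shared by the desaturases (chr11:61587926-61588988) lay 4.02 kb before the start of FADS1 and 7.16 kb before that of FADS2, at 33.0-fold, beside 9.92-fold untreated. FADS1 had a second region of 17.5-fold 1.63 kb after its start.

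The other members had weaker regions, called with vitamin D only. SREBF1 had 2, at 13.7-fold 2.95 kb before the start and 6.63-fold 4.20 kb before it, and INSIG1 had 2, at 11.5-fold 0.619 kb after the start and a weaker one 1.32 kb after it. SREBF2 (6.01-fold, 0.401 kb before the start), TMEM97 (6.01-fold, 0.919 kb after it) and NPC1 (5.01-fold, 0.132 kb before it) each had 1 close to the start. FDFT1 had 1 of 11.5-fold in an intron, ACLY 1 of 10.1-fold in its body, and those counted for FDPS and SCD lay beyond the gene's end, assigned by the authors to RUSC1 and LINC00263.

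**Figure D5:**
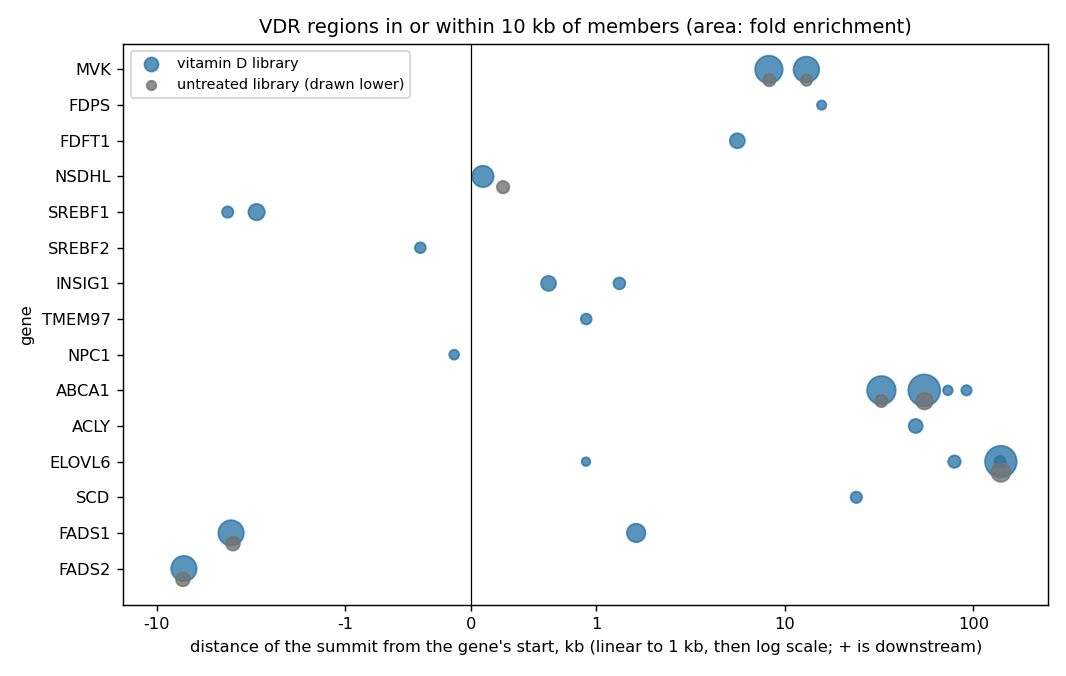
VDR regions in or within 10 kb of the 15 members that had one (rows), by distance of the summit from the gene's start in kb (linear to 1 kb, then a log scale, downstream to the right). Point area is the fold enrichment in the vitamin D library (blue) and the untreated library (grey), and the largest points are the intronic regions of ABCA1 and ELOVL6.

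Members with a VDR region were called in both directions with vitamin D. Of the 15 members with a region, 5 were called higher (ABCA1, NSDHL, MVK, INSIG1 and SCD), 4 lower and 6 neither, and of the 21 without one, 3 were higher, 11 lower and 7 neither. Over all genes tested, 33.5% of those with a region were called higher and 13.1% lower, against 11.3% and 15.8% of those without. At 1 RPKM or more untreated, 37.2% were higher and 15.2% lower with a region, against 14.2% and 19.3% without. The 5 of 15 called higher is thus close to the share of all genes with a region. Lower calls among members, 4 of 15 and 11 of 21, lay above the shares of all genes. At the regions of members, H3K27ac within 1 kb of the summit was measured in both libraries at 23 of 24, and 0 of these passed 1.5-fold higher with vitamin D after centring on promoters, beside 15% of the 6283 such regions. The median centred log2 ratio was 0.12 at member regions and 0.17 over all, and the values at ABCA1's 2 strongest regions were 0.45 and 0.40.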

How the data were processed

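Values began at the files the authors deposited. The submitters' processing notes name Trim Galore, STAR, SAMtools, Bowtie and MACS2, without versions or roles, and GRCh37 (hg19). Per the file headers, each of 4 RNA tables holds RPKM with 1 value per group, a log2 change, a p-value and an adjusted p-value. Those are the authors' own, and no source used here gives the test behind them. An adjusted p listed as 1 was taken as not tested. One table is named for IL-13 and the combination, but its columns are vitamin D and the combination, and it was used by its columns.

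Standard errors were derived from each deposited log2 change and p. The combination against IL-13, and the difference of the 2 IL-13 effects, were derived from the tables and tested with a z test, adjusted by Benjamini-Hochberg over 14734 genes (11 genes on which the tables disagreed by over 0.5 were left out). The variance of the first came from the 4 tables with a floor, and that of the second is a sum.

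The peak lists give, per the file headers, a pileup (signal), a fold enrichment (ratio) and -log10 p and q made by the authors, 1 list per library. No source used here says whether a control library was used. Depth of the ChIP libraries shows only as the background computed back from pileup and fold enrichment, and depth of the RNA samples is unknown. In the VDR library with vitamin D only 0.0955% of pileups are integers, which shows that they were scaled. Summits that shared a start and end were joined into 1 region, and 0 to 51 entries per list without a position were left out.

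Members and lists were chosen with earlier results of these data known. Members were named in full where the adjusted p was under 0.05 and the log2 change at least 0.4 in a deposited table, where the difference of the IL-13 effects was called, or where a STAT6 or VDR region lay within 10 kb. Of the 57 other pathway genes found of 62 names listed (5 are older or newer symbols not found), the 3 largest called rises and falls per comparison at 1 RPKM or more were named, except 1 gene that is not reported here. SQLE, TM7SF2, LSS and the other members given with values outside this rule, and the neighbours CETN2, MMAB and IFT20, were added after their values were seen. Analyses used Python 3.11.15, pandas 2.3.3, NumPy 2.4.6, SciPy 1.17.1 and Matplotlib 3.10.9.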

Additional observations from a re-analysis of the deposited data

Results flagged for a closer look

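The effect of IL-13 differed with vitamin D for 2 of the 36 members, by a z test of the difference itself over 14734 genes with Benjamini-Hochberg adjustment. For TMEM97 the difference was 1.01 on the log2 scale (SE 0.10, adjusted p 1.21e-20), with 5.77 RPKM untreated, 5.67 with IL-13, 5.17 under vitamin D and 10.6 with both. It stayed called with a t distribution of 8 degrees of freedom. The variance of this difference is already a plain sum, so that setting gives no separate check. For ABCA1 the difference was -0.25 (SE 0.07, adjusted p 0.0281), and it too stayed called with the t distribution. Whether 1 of the 3 combination samples carries the TMEM97 value cannot be seen in tables with 1 value per group.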

How the results depend on the processing

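No paired analysis was possible because the RNA tables hold 1 value per group and the ChIP series 1 library per group, and for the same reason no sample could be left out in turn. Centring the RPKM ratios moved no median of all genes by more than 0.06 on the log2 scale, and the median of each role group kept its sign under all 4 of its alternatives. No called member reversed. An adjusted p under 0.01 moved the members called higher with both agents against vitamin D from 5 to 3 and the members called lower in the difference of the IL-13 effects from 1 (ABCA1) to 0. A t distribution with 8 degrees of freedom moved that difference to 3 higher (TMEM97, HMGCS1 and ELOVL6) and 4 lower (ABCA1, ABCG1, MVK and NSDHL). Requiring a log2 change of at least 0.2 left 0 members higher and 10 lower with IL-13, 5 higher and 6 lower with vitamin D, 2 higher with both, 3 higher and 9 lower with both against vitamin D, and 5 higher with both against IL-13, since this leaves out each called change below it.

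For promoter marks, the counts of members past 1.5-fold depended on how a peak was measured. A window of 2.5 kb left 0 for H3K4me3 and 0 for H3K27ac with IL-13, beside 1.84% and 4.22% of all genes. Summed peak length times fold enrichment gave 0 and 1 for H3K4me3 with IL-13 and vitamin D, 15, 13 and 14 of 33 for H3K9ac and 4, 6 and 4 of 35 for H3K27ac with IL-13, vitamin D and both. All genes gave 6.5% and 5.42%, then 38.9%, 37.4% and 38.9%, then 23%, 17.3% and 21.7%. Peaks with a -log10 q of at least 10 gave 1, 0 and 0 of 3 for H3K9ac (2.44%, 2.75% and 2.65% of all genes), and 0 and 0 of 29 for H3K27ac with IL-13 and vitamin D (1.93% and 1.48%), where ABCA1 and MYLIP drop out because each lacks such a peak in at least 1 library. Uncentred ratios gave 9, 3 and 9 for H3K27ac, beside 39.1%, 16.2% and 36.7% of all genes, and its untreated library had the higher background. An alternative chosen after seeing the data, pileup over background without the added 1, gave 2 for H3K27ac with both agents (6.05% of all genes) and changed no other count by over 1.5 times. Leaving out log2 ratios within 0.001 of 1.5-fold, also chosen after seeing the data, gave 2 for H3K9ac with both and 0 for H3K27ac with IL-13 (8.74% and 4.44% of all genes). STAT6 regions with IL-13 were found at 4 members within 50 kb (15.8% of all genes) and at 0 within 1 kb of the start (0.863%). VDR regions within 1 kb of the start were found at 1 member untreated (0.935%) and 6 with vitamin D (4.66%). The cause of these shifts was not tested beyond what each setting leaves out.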
